A study of Mus musculus with 11 samples.

Results

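The 32 genes described here are targets of the nuclear receptor PPAR-alpha and enzymes of fatty acid oxidation, a list of known pathway genes that were chosen by symbol and not by a cut on their values. The choice was made with earlier results of these data known. All 32 were found among the 24063 genes of the deposited tables, and all 32 passed the filter on low counts, which kept 12581 genes. They were read as 17 mitochondrial genes, 7 peroxisomal genes and 8 fasting-induced genes and other PPAR-alpha targets. The last group is called fasting-induced below for short. Their RNA was measured in 11 livers, 6 of them from mice treated with A2M and 5 from mice treated with PBS. The mice carried the strain label Cd1 nu/nu and, per the methods of the study, were male athymic nude animals that bore human tumour xenografts under the skin. A2M was the activated form of human alpha2-macroglobulin, a plasma proteinase inhibitor cleared by the liver, and was injected repeatedly into the peritoneum, while PBS is the buffer given to the controls. Food was freely available according to the methods. The labels give neither the xenografted tumour line, nor the age, nor the time of day or the fed state at which each liver was taken. The methods give 8 weeks as the age of the mice at grafting. Replicates are numbered by the order of deposit within each group, and these numbers pair no A2M liver with a PBS liver. No source states more about how the samples of a group were kept apart, so p-values measure the spread between these samples.

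PPAR-alpha is a receptor for fatty acids that binds DNA as a heterodimer with RXR. In the fasted liver, fatty acids that arrive from adipose tissue activate it, and it raises the genes that carry fatty acids into mitochondria, shorten them there by beta-oxidation and shorten very long chains in peroxisomes. Fasting also raises genes that spare glucose or handle lipid droplets, such as Pdk4, whose kinase switches off pyruvate dehydrogenase. Drugs that activate the receptor make peroxisomes proliferate in the mouse liver and strongly raise the peroxisomal enzymes and the acyl-CoA thioesterases.

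The heterodimer binds a direct repeat of the hexamer AGGTCA with 1 base between its copies, called DR1. Promoter windows of RefSeq (GRCm38.p6, 250 bases before to 50 after the start site) were at hand for 27 of the 32 genes, as 30 windows, and were searched on both strands for AGGTCA, for AGGTCANAGGTCA with up to 2 mismatches and for the E-box CACGTG, the site of clock factors. A DR1 match lay in 5 of the 30 windows (Acot4, Creb3l3, Fabp1, Plin2 and Slc25a20), against 3.86% of 32851 promoter windows. The hexamer lay in 9 windows of 8 genes, against 16.3% of all windows, and every exact hexamer inside a DR1 match was counted under both. The E-box lay in 2, Acot4 and Plin2, against 7.15%. The windows of Fabp1 and Acot4 are shown as examples of a DR1 match before the start site, chosen after the matches were seen, and that of Pdk4 because Pdk4 had the largest fold change of the 32 genes with all 11 livers (without PBS replicate 2 Acot3 had) and none of the 3 motifs. Each reads 5′ to 3′ in the direction of the gene, with the DR1 match, the E-box and any further AGGTCA hexamer (TGACCT on the opposite strand) in capitals. They lie at chr6:71199629-71199928 on the plus strand (Fabp1), chr12:84038129-84038428 on the plus strand (Acot4) and chr6:5496229-5496528 on the minus strand (Pdk4).
Fabp1: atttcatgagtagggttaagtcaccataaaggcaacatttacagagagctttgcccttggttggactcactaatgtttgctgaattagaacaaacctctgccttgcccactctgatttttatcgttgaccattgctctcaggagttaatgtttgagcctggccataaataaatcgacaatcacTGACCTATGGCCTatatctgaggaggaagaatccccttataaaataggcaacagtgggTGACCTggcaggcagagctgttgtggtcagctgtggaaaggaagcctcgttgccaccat
Acot4: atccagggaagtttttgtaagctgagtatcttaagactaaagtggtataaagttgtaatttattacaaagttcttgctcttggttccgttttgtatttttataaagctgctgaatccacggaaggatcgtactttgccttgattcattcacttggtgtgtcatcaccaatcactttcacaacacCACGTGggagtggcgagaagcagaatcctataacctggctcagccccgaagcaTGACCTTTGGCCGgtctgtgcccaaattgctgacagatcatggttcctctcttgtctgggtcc
Pdk4: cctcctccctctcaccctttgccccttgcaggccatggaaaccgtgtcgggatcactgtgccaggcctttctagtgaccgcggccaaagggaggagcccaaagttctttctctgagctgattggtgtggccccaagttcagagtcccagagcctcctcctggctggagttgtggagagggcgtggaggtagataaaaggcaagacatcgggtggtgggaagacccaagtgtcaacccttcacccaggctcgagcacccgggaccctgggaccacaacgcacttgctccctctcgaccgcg
The DR1 match of Fabp1 started at base -67 from the start site with 1 mismatch, and that of Acot4 at base -13 with 2 mismatches, where the E-box of Acot4 started at -66. The matches of Slc25a20, Creb3l3 and Plin2, each with 2 mismatches, started at base 7, -209 and -225. A match describes letters only, and no binding was measured.

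The libraries held 23545121 to 37357134 counted reads in A2M livers and 31513210 to 46381692 in PBS livers. Levels below are RPKM, reads scaled to exon length and to the total of the library. The hepatocyte markers, albumin among them, were abundant in all 11 libraries, with summed levels of 54762 to 66207 RPKM in A2M livers and 47167 to 73748 RPKM in PBS livers. PBS replicate 2 stood apart. The summed level of 10 adipocyte markers was 8.42 to 14.2 RPKM in A2M livers, against 1082 RPKM in PBS replicate 2, 32.9 RPKM in PBS replicate 1 and 10.7 to 13.6 RPKM in the other PBS livers. All 10 markers were highest in PBS replicate 2, among them Fabp4 at 605 RPKM, Cfd at 238 RPKM, Adipoq at 44.8 RPKM and Ucp1, which defines brown fat, at 116 RPKM, while Lep and Ucp1 were at 0 in all 6 A2M livers. The 9 adrenal cortex markers summed to 2.67 to 12.8 RPKM in A2M livers, against 449.8 RPKM in PBS replicate 2 and 4.21 to 8.37 RPKM in the other PBS livers, and 3 of the 9 were at 0 in all A2M livers. A2M replicate 1 was highest in all 8 macrophage markers (152.8 RPKM summed, against at most 82.1 RPKM in the other A2M livers and 26.7 to 72.1 RPKM in PBS livers). The sums of clock genes separated the groups. They were 130.4 to 146.8 RPKM in A2M livers and 25.3 to 88.5 RPKM in PBS livers for 8 dusk-side genes. For 4 dawn-side genes they were 5.26 to 14.6 RPKM against 21.6 to 47.2 RPKM. Taken singly, Per1, Per2, Nr1d1 and Clock overlapped between the groups, and the other clock genes listed did not. Results are therefore given with and without PBS replicate 2, and the part of the other differences in them was not tested. In bulk tissue, fewer cells of a type and less RNA per cell cannot be told apart.

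The comparison asked which of the 32 genes differed between livers of A2M-treated and PBS-treated mice. With the quasi-likelihood test of edgeR and Benjamini-Hochberg adjustment over all genes, none had an adjusted p under 0.01, where 0.215% of all genes did (0.0795% higher and 0.135% lower in A2M livers), and none passed 0.05, where 1.22% did. The smallest adjusted p was 0.0567, shared by Pdk4 and Acot3. At an unadjusted p under 0.05 there were 11 of the 32, 9 higher and 2 lower in A2M livers, against 14.7% of all genes (6.38% higher and 8.32% lower). DESeq2 called 1 of the 32, Acot3, as did the rule that an edgeR exact test and DESeq2 both reach 0.01, against 2.27% and 1.47% of all genes. DESeq2 gave no p for Pdk4 and Cidec, so neither could be called by it or by that rule. The log2 fold change, A2M over PBS, was positive in 23 of the 32 with a median of 0.13, while 48.9% of all genes were positive with a median of -0.0058. That median was 0.063 without PBS replicate 1 and 0.070 without PBS replicate 5. Without PBS replicate 2 the fold change was positive in 25 with a median of 0.18, against 50.1% of all genes, 10 genes had an unadjusted p under 0.05 (9 higher and 1 lower, against 12.7% of all genes, 5.64% higher and 7.10% lower), and again none passed the threshold, where 0.0554% of all genes did.

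**Figure D1:**
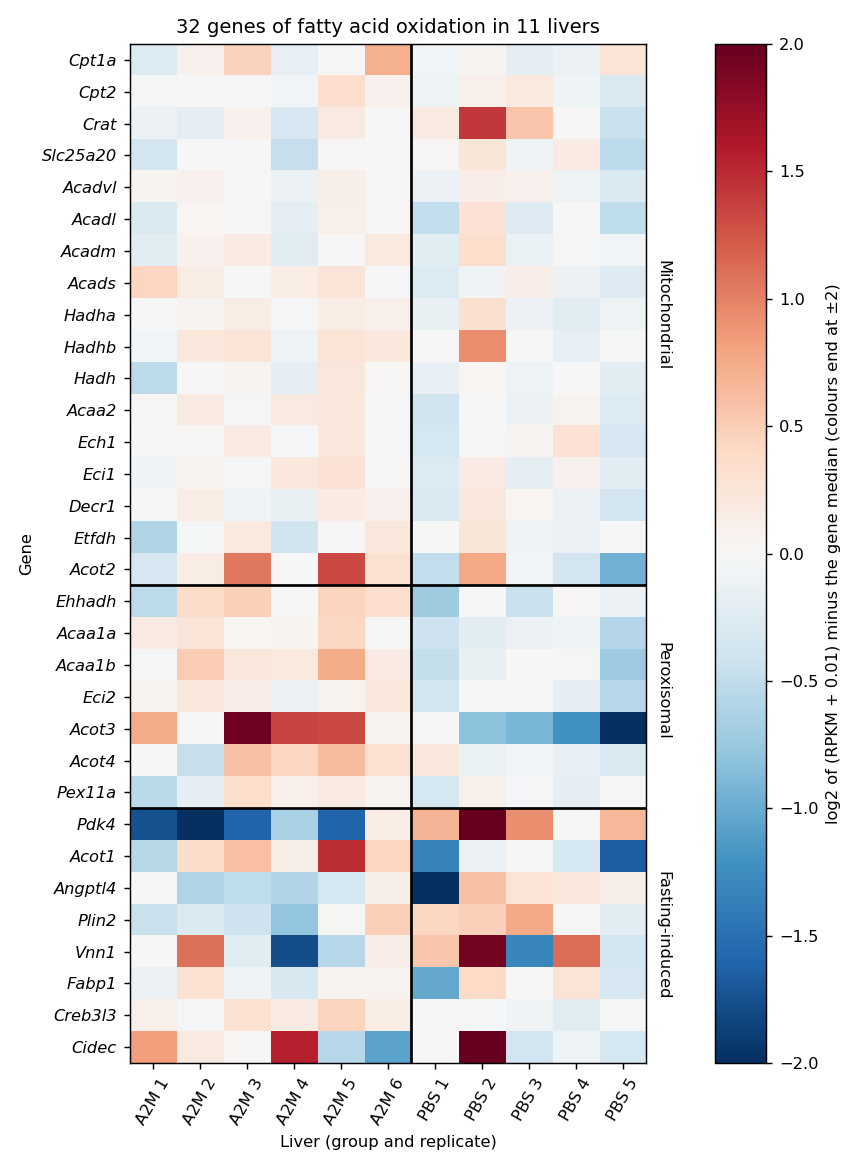
Level of each of the 32 genes (rows) in each of the 11 livers (columns, 6 A2M livers left of 5 PBS livers), as log2 of RPKM plus 0.01 minus the median of the gene over all livers. Colours end at 2 in either direction. PBS replicate 2 was the highest library in 14 of the 32 genes and A2M replicate 5 in 10, and the A2M and PBS livers do not overlap in Acaa1a and Acot3.

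All 7 peroxisomal genes had values above 0 on the log2 fold change scale (median 0.45), and 6 of them an unadjusted p under 0.05. Over all genes 48.9% were positive, and 6.38% were higher at that p. The 30 other peroxisomal genes read further below had 15 positive and 15 negative values, with a median of 0.0017. The mitochondrial genes were nearly level, with 13 of 17 positive, a median of 0.12 and 1 gene, Acads, under 0.05. The fasting-induced genes ran in both directions, with 3 of 8 positive and a median of -0.40, and that median was -0.024 without PBS replicate 2. The medians of the peroxisomal and mitochondrial genes without that library were 0.43 and 0.17, and the mitochondrial median was 0.079 with A2M replicate 5 left out, 0.058 with PBS replicate 1 left out and 0.055 with PBS replicate 5 left out. The difference between the groups of genes was not tested.

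**Figure D2:**
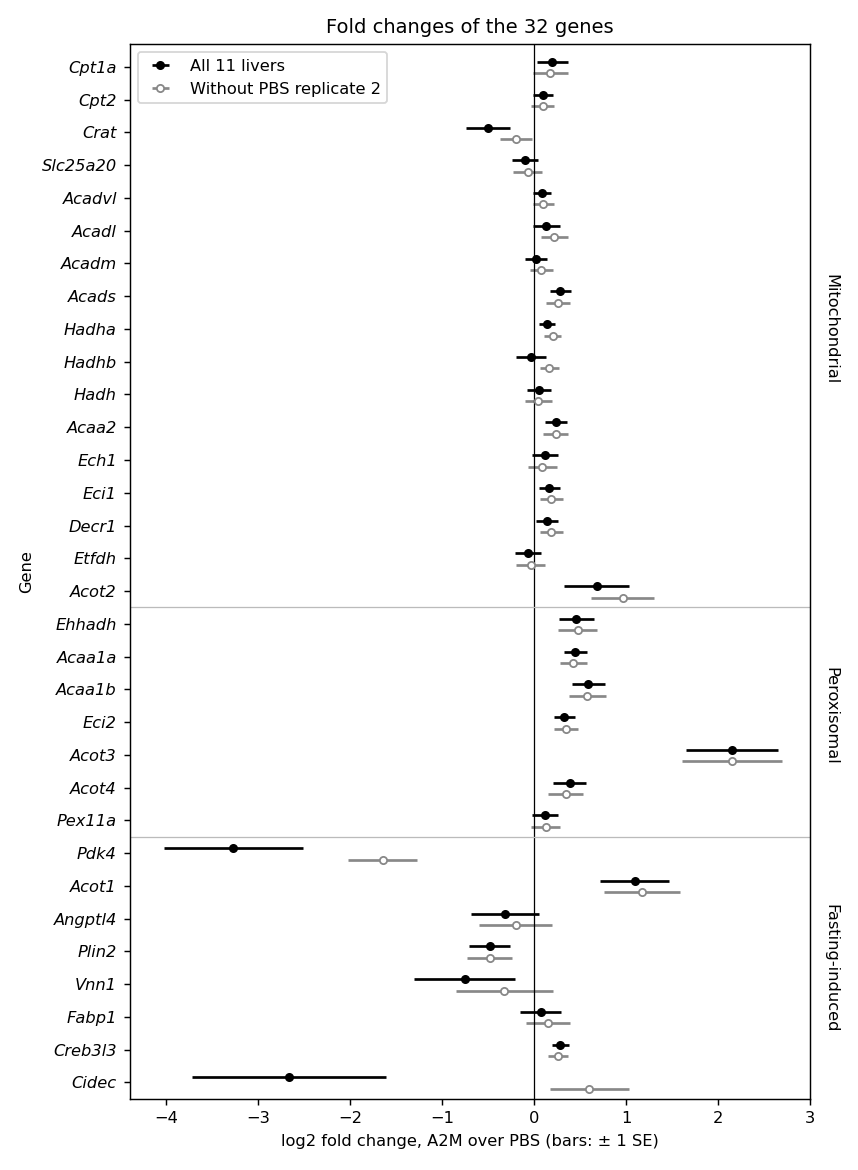
Fitted log2 fold change, A2M over PBS, of each of the 32 genes (points, bars of 1 SE on each side) from all 11 livers (filled) and without PBS replicate 2 (open). The 7 peroxisomal genes lie right of 0 in both fits, whereas without PBS replicate 2 Pdk4 lies at -1.65 and Cidec at 0.60, against -3.27 and -2.67 with it.

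Among the peroxisomal genes the pair of 3-ketoacyl-CoA thiolases, Acaa1a and Acaa1b, which catalyse the last step of the cycle, were the most abundant. Acaa1a (chr9:119339676-119350299, plus strand, GRCm38) had 162, 173, 149, 151, 192 and 145 RPKM in the 6 A2M livers, against 109, 124.8, 133, 135 and 96.0 RPKM in the 5 PBS livers. The groups did not overlap in RPKM, though they did in TMM-scaled CPM, and the mean was 162 ± 18.1 RPKM in A2M livers and 119.6 ± 16.6 RPKM in PBS livers (SD, n = 6 and 5). Its log2 fold change was 0.45 ± 0.13 (SE, with an adjusted p of 0.116 in edgeR), and 0.43 without PBS replicate 2. Acaa1b (chr9:119148023-119157093, minus strand) had 239.8, 346, 284, 279, 408 and 274 RPKM in A2M livers, against 174, 220.2, 243, 236 and 147 RPKM in PBS livers. In 5 of the 6 A2M livers it lay above every PBS liver, and the log2 fold change was 0.59 ± 0.18 (SE, with an adjusted p of 0.128 in edgeR). The thiolases lie close together on chromosome 9 and resemble each other: 30.5% of the 50-base words of Acaa1b also occur in Acaa1a, and 12.4% of those of Acaa1a in Acaa1b, so part of their reads could fit either copy.

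Ehhadh, the bifunctional enzyme that hydrates and oxidises the chain before the thiolases, had 32.4, 59.6, 64.8, 46.3, 62.8 and 58.3 RPKM in A2M livers, against 28.4, 46.3, 33.9, 47.1 and 42.7 RPKM in PBS livers. A2M replicate 1 lay among the PBS livers and 4 of the 6 A2M livers above all of them, with a log2 fold change of 0.46 (SE 0.19, edgeR adjusted p = 0.285). Eci2, an isomerase that moves the double bond of unsaturated chains, had 94.6, 106.3, 99.8, 84.1, 95.9 and 105.5 RPKM in A2M livers, against 70.4, 91.0, 89.4, 80.5 and 61.4 RPKM in PBS livers. It was above every PBS liver in 5 of the 6 A2M livers (log2 fold change 0.33, SE 0.12, edgeR adjusted p = 0.207). Pex11a, which acts in the division of peroxisomes, ran from 13.4 through a median of 20.5 to 24.7 RPKM in A2M livers and from 15.3 through 19.1 to 20.9 RPKM in PBS livers. Its log2 fold change of 0.11 (SE 0.14) was within the spread of the livers.

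The acyl-CoA thioesterases release free fatty acids from their CoA esters, and Acot1 to Acot4 lie side by side on chromosome 12, with their products in the cytosol (Acot1), mitochondria (Acot2) and peroxisomes (Acot3 and Acot4). Acot3 (chr12:84052144-84060402, plus strand) was barely expressed, with 0.254, 0.147, 0.599, 0.393, 0.382 and 0.153 RPKM in A2M livers, against 0.145, 0.0792, 0.0734, 0.0582 and 0.0107 RPKM in PBS livers. These levels rest on 21, 9, 58, 29, 25 and 12 reads in A2M livers and 13, 8, 6, 7 and 1 reads in PBS livers. The groups did not overlap in RPKM, but the lowest A2M liver and the highest PBS liver were next to each other. The log2 fold change was 2.15 (SE 0.50), with an adjusted p of 0.0567 in edgeR and 0.00302 in DESeq2. It ran from 1.88 to 2.51 when each library was left out in turn, with an edgeR adjusted p of 0.0350 to 0.126. Of the 50-base words of Acot3, 21.3% occur in another gene, and its exons share bases with Gm49366 on its strand and 4732463B04Rik on the other.

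Acot4 had 3.04, 2.21, 4.58, 4.11, 4.72 and 3.76 RPKM in A2M livers, against 3.57, 2.78, 2.92, 2.71 and 2.46 RPKM in PBS livers. The lowest liver of all was A2M replicate 2, and 4 of the 6 A2M livers were above every PBS liver (log2 fold change 0.39, SE 0.18, edgeR adjusted p = 0.336). Acot1, which is placed with the fasting-induced genes, had 1.87, 3.57, 4.19, 2.998, 7.75 and 3.74 RPKM in A2M livers, against 1.09, 2.56, 2.77, 2.16 and 0.872 RPKM in PBS livers. In 5 of the 6 A2M livers it exceeded every PBS liver, with a log2 fold change of 1.09 (SE 0.38, edgeR adjusted p = 0.185) and 1.18 without PBS replicate 2. Acot2 had the same order of livers at its ends, 2.02 RPKM in A2M replicate 5 and 0.404 RPKM in PBS replicate 5, and a log2 fold change of 0.68 (SE 0.35), or 0.96 without PBS replicate 2. Acot2 shares 24.5% of its 50-base words with Acot1, and Acot1 13.6% of its own with Acot2, so their values are not separate measurements where reads fit both.

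**Figure D3:**
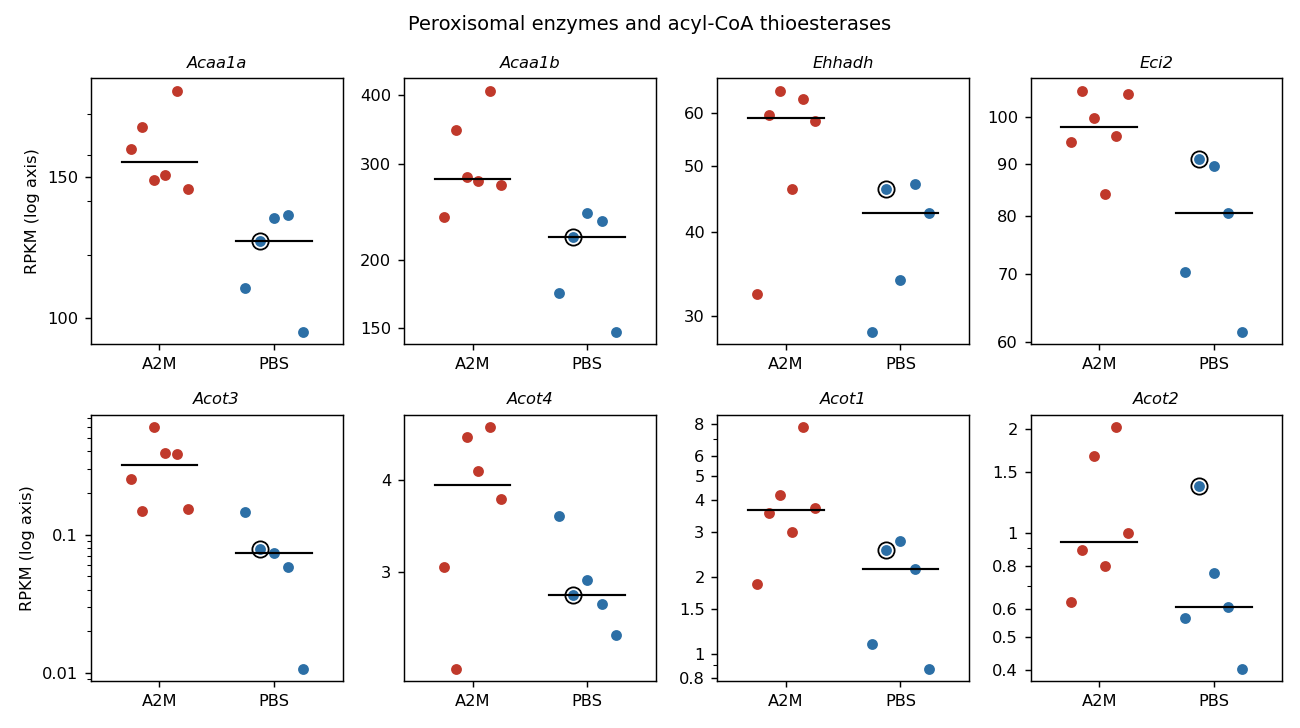
RPKM (log axis, scaled for each gene) of 4 peroxisomal enzymes and the 4 thioesterases in A2M livers (left, red, n = 6) and PBS livers (right, blue, n = 5). Points are livers, bars are group medians and a ring marks PBS replicate 2, which lies within the range of the other PBS livers for Acaa1a and Acaa1b. Only in the panels of Acaa1a and Acot3 do the groups not overlap.

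Groups that did not overlap in RPKM were thus found in 2 of the 32 genes, both higher in A2M livers, against 2.27% of all genes (0.946% higher and 1.32% lower). In TMM-scaled CPM there were also 2, Acot3 and Creb3l3, against 2.59% of all genes. Without PBS replicate 2 there were 3 in RPKM, Acaa1a, Acot3 and Hadha, against 2.83% of all genes (1.42% higher).

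The carnitine shuttle brings fatty acids into mitochondria. Cpt1a, the outer-membrane transferase at which the pathway is controlled, had 42.3 to 83.6 RPKM in A2M livers with a median of 52.7 RPKM, against 49.0, 53.1, 44.6, 47.1 and 61.6 RPKM in PBS livers. Both the lowest and the highest liver were A2M livers, and the log2 fold change was 0.20 (SE 0.17). Cpt2, its partner on the inner membrane, had 58.6 to 76.9 RPKM (median 61.3 RPKM) in A2M livers, against 57.7, 65.5, 70.1, 57.4 and 50.1 RPKM in PBS livers (log2 fold change 0.098, SE 0.11). Slc25a20, the carrier that exchanges carnitine and its esters across the inner membrane, ran from 29.8 to 41.7 RPKM in A2M livers and from 28.5 to 48.4 RPKM in PBS livers (log2 fold change -0.10, SE 0.14). Crat, which makes acetylcarnitine, had 4.17, 3.94, 4.82, 3.61, 5.14 and 4.51 RPKM in A2M livers, against 5.16, 12.1, 6.68, 4.54 and 3.33 RPKM in PBS livers. Its high value came from PBS replicate 2, at 2.49 times the median of the other PBS livers, and its log2 fold change was -0.50 ± 0.24 (SE, with an adjusted p of 0.360 in edgeR), or -0.20 (SE 0.17) without that library.

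The 4 acyl-CoA dehydrogenases open the cycle for chains of different length. Acadvl, for very long chains, had 186 to 218 RPKM in A2M livers and 165 to 221 RPKM in PBS livers, Acadl, for long chains, 70.5 to 93.0 RPKM and 60.6 to 105 RPKM, and Acadm, for medium chains, 111.6 to 150.1 RPKM and 114 to 168 RPKM. Their log2 fold changes were 0.089, 0.13 and 0.021, each smaller than its SE of 0.098, 0.14 and 0.12, and PBS replicate 2 was the highest liver in all 3. Acads, for short chains, had 118.8, 97.9, 88.5, 98.6, 106.3 and 86.1 RPKM in A2M livers, against 73.4, 84.7, 97.0, 81.7 and 74.0 RPKM in PBS livers. It was above every PBS liver in 4 of the 6 A2M livers, with a log2 fold change of 0.29 (SE 0.12, edgeR adjusted p = 0.286). Of the 50-base words of Acadvl, 26.9% occur in Dvl2, whose exons overlap it on the opposite strand, and the libraries do not keep the strand.

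Hadha and Hadhb encode the subunits of the trifunctional protein, which carries out the remaining steps for long chains, and lie next to each other in opposite directions on chromosome 5. Hadha had 67.6, 70.3, 75.1, 65.9, 74.8 and 72.8 RPKM in A2M livers, against 60.9, 84.2, 62.2, 57.7 and 63.0 RPKM in PBS livers. All A2M livers lay above 4 of the PBS livers and below PBS replicate 2, and the log2 fold change was 0.14 (SE 0.091), or 0.20 (SE 0.090, edgeR adjusted p = 0.382) without PBS replicate 2. Hadhb had 78.9, 95.2, 98.1, 76.1, 98.7 and 94.6 RPKM in A2M livers, against 81.9, 155.7, 81.4, 73.3 and 80.7 RPKM in PBS livers. PBS replicate 2 again stood alone, at 1.92 times the median of the other PBS livers, and the log2 fold change was -0.034 (SE 0.16), or 0.17 (SE 0.11) without it.

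Hadh, the dehydrogenase for medium and short chains, had 109 to 184 RPKM in A2M livers and 134 to 161 RPKM in PBS livers (log2 fold change 0.049, SE 0.13). Acaa2 (chromosome 18), the mitochondrial thiolase, was the most abundant of the 17 with 564 ± 43.8 RPKM in A2M livers and 481 ± 63.2 RPKM in PBS livers (SD, n = 6 and 5), and its log2 fold change was 0.24 ± 0.12 (SE, with an adjusted p of 0.391 in edgeR). The isomerases and reductase that prepare unsaturated chains, Ech1, Eci1 and Decr1, had log2 fold changes of 0.12, 0.17 and 0.14 with overlapping groups. Etfdh, which hands the electrons of the dehydrogenases to ubiquinone, had 92.9 ± 19.9 RPKM in A2M livers and 98.5 ± 10.4 RPKM in PBS livers (log2 fold change -0.065, SE 0.14).

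Among the fasting-induced genes Pdk4 (chr6:5483351-5496309, minus strand) had the lowest levels in A2M livers relative to PBS livers. It had 0.418, 0.344, 0.465, 0.905, 0.459 and 1.56 RPKM in A2M livers, against 2.28, 27.4, 2.70, 1.42 and 2.24 RPKM in PBS livers. In 5 of the 6 A2M livers Pdk4 lay below every PBS liver, and A2M replicate 6 overlapped with PBS replicate 4 alone. The log2 fold change was -3.27 ± 0.76 (SE, with an adjusted p of 0.0567 in edgeR), and -1.65 (SE 0.38, edgeR adjusted p = 0.0868) without PBS replicate 2, whose Pdk4 level was 12.1 times the median of the other PBS livers. The mean was 0.693 ± 0.470 RPKM in A2M livers and 2.16 ± 0.538 RPKM in the 4 other PBS livers (SD). Without A2M replicate 6 the log2 fold change was -3.70 (edgeR adjusted p = 0.0369). DESeq2 gave no p for Pdk4. Pdk4 is among the genes that the study selected in livers of this set, so its direction is not independent evidence. The untreated mean printed by the study equals the 2.16 RPKM of the 4 other PBS livers. Its treated mean lies below the 0.693 RPKM of the 6 A2M livers and equals that of A2M replicates 2, 3, 4 and 5. The study's printed means of Pdk4 thus leave out PBS replicate 2, A2M replicate 1 and A2M replicate 6.

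Cidec, a protein of lipid droplets that is abundant in adipocytes, had 1.48, 0.938, 0.840, 2.45, 0.553 and 0.385 RPKM in A2M livers, against 0.823, 35.6, 0.627, 0.777 and 0.645 RPKM in PBS livers. The high liver was PBS replicate 2, the library with the adipocyte markers, and the other PBS livers lay within the range of the A2M livers. The log2 fold change was -2.67 ± 1.05 (SE, with an adjusted p of 0.253 in edgeR) with that library and 0.60 (SE 0.43, edgeR adjusted p = 0.634) without it, so the sign turned. Vnn1, a pantetheinase that responds to PPAR-alpha, was low, at 0.0727 to 0.598 RPKM in A2M livers (median 0.253 RPKM), against 0.407, 1.05, 0.105, 0.607 and 0.207 RPKM in PBS livers. Its log2 fold change was -0.76 (SE 0.55), or -0.32 (SE 0.53) without PBS replicate 2, and the groups overlapped widely.

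Angptl4, a secreted inhibitor of lipoprotein lipase, had 60.5, 39.9, 42.5, 39.9, 47.6 and 65.6 RPKM in A2M livers, against 11.1, 90.6, 73.1, 69.6 and 65.3 RPKM in PBS livers. The low liver was PBS replicate 1, and 5 of the 6 A2M livers lay below the other 4 PBS livers. The log2 fold change was -0.32 ± 0.37 (SE, with an adjusted p of 0.758 in edgeR), and -0.59 (edgeR adjusted p = 0.128) without PBS replicate 1. Plin2, the main coat protein of liver lipid droplets, had 116, 129.1, 119, 91.0, 160.1 and 220.0 RPKM in A2M livers, against 209, 219, 267, 158 and 134 RPKM in PBS livers. A2M replicates 5 and 6 lay among the PBS livers and the other 4 A2M livers below all of them, and the log2 fold change was -0.48 ± 0.22 (SE, with an adjusted p of 0.341 in edgeR), and -0.48 (SE 0.25, edgeR adjusted p = 0.444) without PBS replicate 2.

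Creb3l3, a transcription factor of the endoplasmic reticulum that acts with PPAR-alpha in fasting, had 111.9, 102, 128.9, 117, 142 and 115 RPKM in A2M livers, against 104, 101, 99.5, 89.3 and 101 RPKM in PBS livers. The groups met at A2M replicate 2 and PBS replicate 1, and the other 5 A2M livers were above every PBS liver. The log2 fold change was 0.28 ± 0.093 (SE, with an adjusted p of 0.160 in edgeR), and 0.26 without PBS replicate 2. Fabp1, the cytosolic fatty acid carrier of hepatocytes, was the most abundant of the 32 genes, with 4959 to 7698 RPKM in A2M livers (median 6225 RPKM), against 3058, 8171, 6209, 7536 and 4939 RPKM in PBS livers. Its lowest and its highest liver were both PBS livers, and the log2 fold change was 0.070 (SE 0.22).

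**Figure D4:**
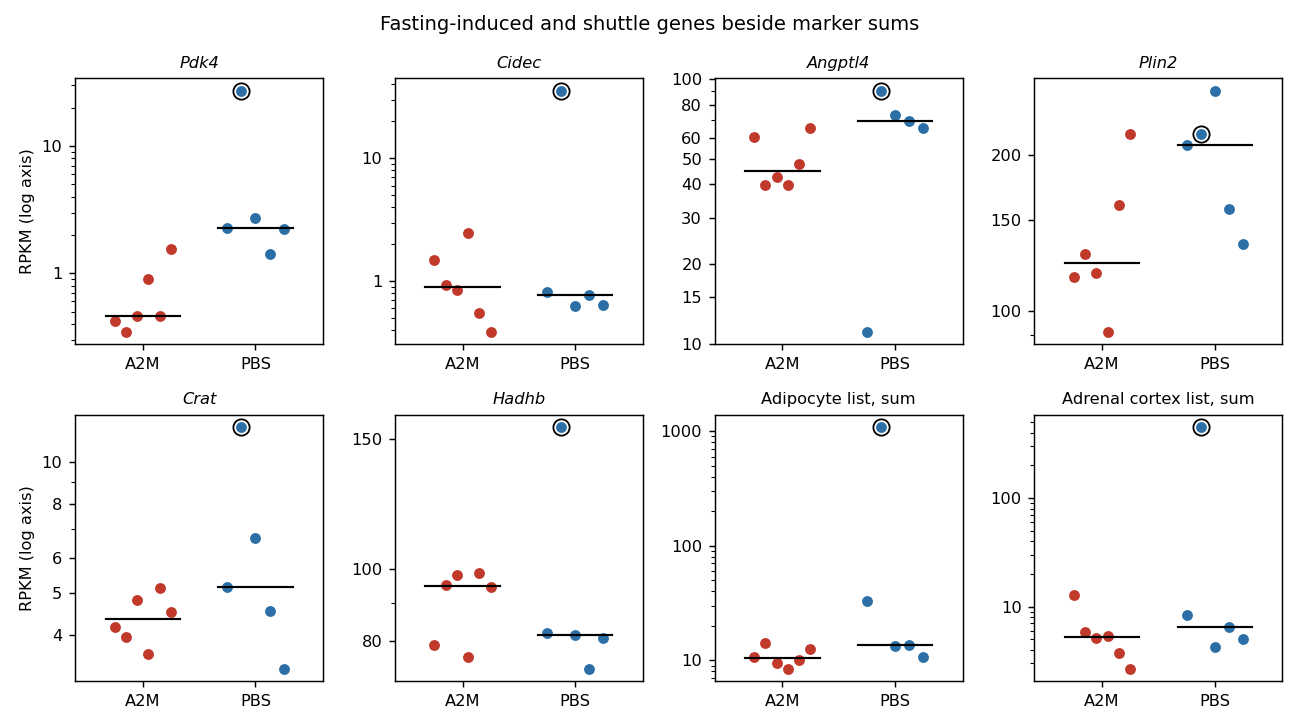
RPKM (log axis, scaled for each panel) of Pdk4, Cidec, Angptl4, Plin2, Crat and Hadhb, and of the summed adipocyte and adrenal cortex markers, in A2M livers (left, red, n = 6) and PBS livers (right, blue, n = 5). Points are livers, bars are group medians and a ring marks PBS replicate 2, at 27.4 RPKM for Pdk4, 35.6 RPKM for Cidec and 1082 RPKM for the adipocyte sum, while the other PBS livers have 1.42 to 2.70 RPKM of Pdk4 and 0.627 to 0.823 RPKM of Cidec.

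The livers that were high or low differed between the groups of genes. PBS replicate 2 was the highest of the 11 libraries in 9 of 17 mitochondrial, 0 of 7 peroxisomal and 5 of 8 fasting-induced genes, against 20.0% of all genes. A2M replicate 5 was the highest in 10 of the 32 genes, 3 of them peroxisomal, and the lowest in 0. PBS replicate 5 was the lowest in 12 genes and PBS replicate 1 in 7. Among the A2M livers alone, replicate 4 was lowest in 13 genes and replicate 1, the library with the high macrophage markers, in 11. The part of these markers in the levels of the 32 genes was not tested. For the libraries other than PBS replicate 2, the share over all genes was not counted, so their counts have no background beside them. The smallest coefficients of variation were 5.37% for Hadha and 5.76% for Acadvl in the A2M livers, while in the 5 PBS livers Hadha had 16.1%, Acadvl 11.6% and Creb3l3 the smallest, 5.76%. Pdk4 had 67.9% in A2M livers, and 24.9% in PBS livers without replicate 2.

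The rest of the pathway was read from 118 further genes, of which 110 were tested. Of these 64 had a positive fold change, against 48.9% of all genes. At an adjusted p under 0.01 edgeR called 1 higher and 0 lower, against 0.0795% and 0.135% of all genes. DESeq2 called 5 higher and 2 lower, against 2.27% of all genes in both directions. For the lists below, 6.38% of all genes were higher and 8.32% lower at an unadjusted p under 0.05 in edgeR. An edgeR exact test together with DESeq2 called 1.47% of all genes. The 17 genes of PPAR-alpha, its partners and coregulators had 0 calls in edgeR, with 1 higher and 1 lower at an unadjusted p under 0.05, and DESeq2 called 1 of them, Ppard. Ppara itself had 10.5, 17.7, 29.5, 24.8, 28.3 and 29.0 RPKM in A2M livers, against 11.3, 18.8, 15.3, 18.3 and 18.7 RPKM in PBS livers. In 4 of the 6 A2M livers it was above every PBS liver, A2M replicate 1 was the lowest of all, and the log2 fold change was 0.51 ± 0.24 (SE, with an adjusted p of 0.358 in edgeR). Ppard, the related receptor PPAR-delta, had 1.67, 1.43, 1.98, 1.76, 2.26 and 1.45 RPKM in A2M livers, against 7.70, 4.45, 5.502, 2.10 and 1.94 RPKM in PBS livers. The PBS livers were spread and 2 of them lay within the range of the A2M livers (log2 fold change -1.27, SE 0.30, adjusted p = 0.0620 in edgeR, 0.00202 in DESeq2). Ppargc1b, a coactivator, had a log2 fold change of 0.63 (SE 0.28, edgeR adjusted p = 0.325).

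The other mitochondrial genes of oxidation and ketogenesis, 22 tested, had 0 calls in edgeR and in DESeq2, 3 higher and 0 lower at an unadjusted p under 0.05 in edgeR, and a median log2 fold change of 0.076. Acad10, a member of the acyl-CoA dehydrogenase family, Slc22a5, the carnitine importer of the plasma membrane, and Pccb, a subunit of propionyl-CoA carboxylase, had the smallest p in that list, with log2 fold changes of 0.37, 0.36 and 0.19 and edgeR adjusted p of 0.0812, 0.246 and 0.291. The 30 other peroxisomal genes had as many positive as negative fold changes, 15 each, with a median of 0.0017. Of these edgeR called 0, with 1 higher and 1 lower at an unadjusted p under 0.05, and DESeq2 called 1, Nudt19. Nudt19, a coenzyme A diphosphatase, had 12.4, 12.1, 13.3, 13.6, 13.3 and 11.6 RPKM in A2M livers, against 8.66, 11.0, 9.76, 9.69 and 10.3 RPKM in PBS livers, with groups that did not overlap (log2 fold change 0.38, SE 0.087, adjusted p = 0.0550 in edgeR, 0.00276 in DESeq2). Crot, which makes carnitine esters of shortened chains for export from peroxisomes, had 122.5, 142.7, 156.9, 74.2, 106.7 and 242.7 RPKM in A2M livers, against 232, 244, 224, 184 and 225 RPKM in PBS livers. In 5 of the 6 A2M livers Crot lay below every PBS liver (log2 fold change -0.63, SE 0.23, edgeR adjusted p = 0.210). Hacl1, an enzyme of alpha-oxidation, had a log2 fold change of -0.47 (SE 0.23, edgeR adjusted p = 0.385).

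Of 41 other PPAR-alpha and fasting targets tested, 23 had a positive fold change (median 0.048). At an unadjusted p under 0.05 in edgeR, 10 were higher and 9 lower in A2M livers. Among the lower was Fgf21, with a log2 fold change of -2.09 (SE 0.62, edgeR adjusted p = 0.121). Of these edgeR called 1, DESeq2 5, and an edgeR exact test together with DESeq2 4 (Cyp4a10, Cyp4a31, Cyp4a32 and Tsc22d3). Cyp4a32, a fatty acid omega-hydroxylase of the family that PPAR-alpha activators raise, rose in A2M livers to 7.79, 9.54, 9.19, 5.58, 6.89 and 8.38 RPKM, against 4.73, 4.86, 3.20, 3.93 and 3.06 RPKM in PBS livers. The groups did not overlap, and the log2 fold change was 1.02 ± 0.16 (SE, with an adjusted p of 0.00960 in edgeR), or 1.06 (edgeR adjusted p = 0.0217) without PBS replicate 2. Of the 11 fits that left out a library it passed in 1, without A2M replicate 4, and it did not pass when scaled to library totals. Its relative Cyp4a31 had 2.04, 2.25, 3.72, 2.02, 2.68 and 3.09 RPKM in A2M livers, against 1.497, 1.68, 0.645, 1.10 and 0.730 RPKM in PBS livers (log2 fold change 1.25, SE 0.25, adjusted p = 0.0312 in edgeR, 8.98e-05 in DESeq2). Cyp4a31 is also among the genes the study selected in livers of this set, where its printed untreated mean equals that without PBS replicate 2. Its printed treated mean equals that of A2M replicates 2, 3, 4 and 5. Genes of this family are close in sequence, so their reads may be shared. Tsc22d3, a target of glucocorticoids as well, had 34.3, 22.7, 38.4, 35.1, 35.9 and 22.6 RPKM in A2M livers, against 41.1, 79.4, 48.9, 71.3 and 74.3 RPKM in PBS livers, with no overlap (log2 fold change -0.99, SE 0.19, adjusted p = 0.0302 in edgeR, 0.000175 in DESeq2). The only other gene of the list with an edgeR adjusted p under 0.05 was Cyp4a10 (log2 fold change 2.23, SE 0.47, adjusted p = 0.0417 in edgeR, 0.00128 in DESeq2). DESeq2 also called Pdk2, a kinase of the same family as Pdk4 (log2 fold change 0.52 in edgeR, adjusted p = 0.0681 in edgeR, 0.00608 in DESeq2). Cyp4a10, Pdk2 and Fgf21 were named after their values were seen.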

How the data were processed

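RNA-seq libraries of 11 livers were compared, 6 A2M and 5 PBS, grouped by the treatment in the labels. The TruSeq v2 libraries carry no strand information and were read from 1 end. The submitters' processing notes and the methods name bcl2fastq 1.8.4, TopHat2, the mouse genome mm10 and featureCounts with RefSeq genes. The authors deposited 3 tables of 24063 genes: raw read counts as whole numbers, RPM, which matched the counts scaled to equal totals within 1e-06, and RPKM, which the authors computed from the exon lengths of featureCounts. No columns of other samples were found (0).

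The deposited counts were tested with edgeR 4.0.16 in R 4.3.3 (TMM, filterByExpr by group, quasi-likelihood F-test, Benjamini-Hochberg adjustment over 12581 genes, threshold 0.01) with no covariate. The study also used 0.01, but required it of edgeR and DESeq together. Of the alternatives, the edgeR exact test together with DESeq2 comes nearest to that rule in its tests, but not in its livers. It used every liver, PBS replicate 2 among them. The study's printed means of Pdk4 and Cyp4a31 leave out PBS replicate 2, A2M replicate 1 and A2M replicate 6. Libraries were left out only singly here, never these together. The counts of called genes are therefore not directly comparable with those of the study. RPM was not used further. Alternatives were DESeq2 1.42.0, RLE size factors, library totals, all genes without the filter, a robust dispersion, an edgeR exact test together with DESeq2, limma 3.58.1 on log2 of RPKM plus 1 or 0.1, an adjusted p under 0.05 and leaving out each library. Scripts were tested on simulated data. The 32 genes, the other lists and the alternatives were chosen with earlier results of these data known. All 32 genes are named. From each further list the 3 genes with the smallest p are named, with Ppara and any gene past the threshold. Values for every liver were to be given for Pdk4 and at least the 8 genes with the smallest p. Adgre1 was matched as Emr1, Gk as Gyk, and Amy2a1 was not found. Positions, exon overlap and shared 50-base words come from the GENCODE annotation of GRCm38, the build called mm10. Among the marker lists, those of skeletal muscle, pancreas, kidney, endothelium and stellate cells were also summed. Their ranges were 2.21 to 4.39 RPKM in A2M livers and 2.60 to 3.82 RPKM in PBS livers for muscle, 23.0 to 35.9 and 33.1 to 43.4 for pancreas, 0.0825 to 0.921 and 0.105 to 0.379 for kidney, 27.7 to 49.0 and 17.5 to 53.4 for endothelium (17.5 to 30.5 in PBS livers without replicate 2), and 27.8 to 46.3 and 25.6 to 72.1 for stellate cells and fibroblasts (25.6 to 34.5 without it).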

Additional observations from a re-analysis of the deposited data

Results flagged for a closer look

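A library whose level lay far from the others of its group by Dixon's test was found in 5 of the 64 groups examined (32 genes in A2M and in PBS livers), where chance alone gives about 1 in 20 groups. In 4 of the 5 the library was PBS replicate 2, which also held the adipocyte and adrenal markers. Its levels were 27.4 RPKM for Pdk4 (1.42 to 2.70 RPKM in the other PBS livers), 35.6 RPKM for Cidec (0.627 to 0.823 RPKM), 155.7 RPKM for Hadhb (73.3 to 81.9 RPKM) and 84.2 RPKM for Hadha (57.7 to 63.0 RPKM). Pdk4 and Cidec are known to be expressed in adipose tissue as well as in liver, and the part of that tissue in these values was not tested. The remaining library was A2M replicate 5, with 76.9 RPKM of Cpt2, where the next highest A2M liver had 64.5 RPKM.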

How the results depend on the processing

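The count of the 32 genes called was 0 in the main test and under every alternative except DESeq2 and the edgeR exact test together with DESeq2, which called 1 each (Acot3, log2 fold change 2.17 and 2.15, adjusted p = 0.00302 in both). Over all genes, 27 were called, against 286 by DESeq2, 185 by both tests together, 154 at an adjusted p under 0.05 and 6 to 35 when each library was left out. Leaving out A2M replicates 1 to 6 in turn gave 17, 8, 6, 14, 8 and 35 genes, and PBS replicates 1 to 5 gave 7, 7, 6, 17 and 18. Of the further pathway genes 1 was called, against 7 by DESeq2, 5 by both tests, 4 at an adjusted p under 0.05, 0 with library totals, 0 with limma at either pseudocount and 0 to 1 when each library was left out. Some log2 fold changes turned sign when a library was left out, and none of them passed the threshold in any of these fits. Cidec ran from -3.07 to 0.60 (PBS replicate 2 left out), Hadhb from -0.091 to 0.17 (PBS replicate 2 left out), Acadm from -0.041 (PBS replicate 1 left out) to 0.078, Fabp1 from -0.10 (PBS replicate 1 left out) to 0.20, Hadh from -0.020 (A2M replicate 5 left out) to 0.13 and Etfdh from -0.13 to 0.021 (A2M replicate 1 left out). The median of the fasting-induced genes was -0.024 without PBS replicate 2, -0.54 to -0.024 over all libraries left out, and -0.13 with limma on log2 of RPKM plus 1. That of all 32 genes was 0.063 to 0.18 and that of the mitochondrial genes 0.055 to 0.17 over the libraries left out. That of the peroxisomal genes was 0.38 to 0.53, with all 7 positive in each fit and under each scaling. The cause of these shifts was not tested, beyond the marker levels given for PBS replicate 2. Acot3 rests on 1 to 58 reads and Vnn1 on 5 to 99 in a library, so depth limits their precision. No paired analysis was possible because the replicate numbers only follow the order of deposit.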
